A study of Mus musculus with 15 samples.

Results

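The genes described here encode 9 enzymes of the tricarboxylic acid (TCA) cycle and its isocitrate branch: Cs, Idh1, Idh2, Idh3a, Ogdh, Sdha, Sdhb, Fh1 and Mdh2. They were taken by symbol from a table of 17030 mouse genes measured by bulk RNA sequencing. All 9 were found, and all 9 were among the 11793 genes that reached an FPKM (the authors' level per transcript length and sequencing depth) of at least 1 in at least 3 of 15 libraries. The study concerns macrophages that carry a chimeric antigen receptor (CAR), a synthetic receptor that joins an outside binding part to inside signalling parts. Its 15 libraries fall into 5 groups of 3, all labelled as primary cells of bone marrow. CAR macrophages were labelled as expressing and treated with the CAR, and control-CAR macrophages as expressing and treated with a control-CAR. The 3 other groups carried a wild type genotype label and no treatment: Hoxb8 macrophages, named for a homeobox gene, BMDM (bone marrow-derived macrophages) and progenitor cells. The antigen, the receptor's parts, the way the receptor was delivered, the age of the mice and the days in culture are unknown from the labels. Since no label ties the libraries to different mice or cultures, p-values here cover only library-to-library spread, which may be technical.

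The TCA cycle runs in the mitochondrial matrix, where it oxidises acetyl-CoA to carbon dioxide and passes electrons to the respiratory chain. Citrate synthase (Cs) joins acetyl-CoA to oxaloacetate, isocitrate dehydrogenases (Idh genes) and the 2-oxoglutarate dehydrogenase complex (Ogdh) carry out the oxidative decarboxylations, and succinate dehydrogenase (Sdha, Sdhb), fumarase (Fh1) and malate dehydrogenase (Mdh2) return the carbon to oxaloacetate. Isocitrate is oxidised in mitochondria by the NAD-dependent IDH3 complex, of which Idh3a encodes the catalytic subunit, and by the NADP-dependent Idh2 product, while the Idh1 product does the NADP-dependent reaction in the cytosol and peroxisomes. In macrophages the cycle is known for its remodelling on inflammatory activation, when citrate and succinate build up and cis-aconitate is drawn off to itaconate by the product of Acod1.

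Each library held between 16962839 and 19221681 estimated counts, and the 9 enzymes were covered by between 150 counts (Idh3a, a Hoxb8 macrophage library) and 8529 counts (Idh2, a progenitor library). Changes between groups were modelled on these counts by the quasi-likelihood test of edgeR, adjusted after Benjamini and Hochberg over all 11793 genes, and called at an adjusted p under 0.05. They are log2 changes relative to TMM scaling, which takes most genes as unaltered, whereas FPKM is relative to the library total. The share of genes called was 2.62% in control-CAR against Hoxb8 macrophage and between 70.3% and 87.3% in the other comparisons. That premise is therefore in doubt for those other comparisons. The TMM factors separated the groups, at 1.05 in CAR, between 0.825 and 0.877 in control-CAR, between 0.824 and 0.829 in Hoxb8 macrophage, between 0.897 and 0.961 in BMDM and between 1.46 and 1.47 in progenitor libraries. Changes on the 2 scales therefore differ most against progenitor cells, and both are given. The groups also differed in cell type markers. The 7 macrophage markers summed to between 2440 and 2510 FPKM in CAR, 7180 and 7780 in control-CAR, 7450 and 8160 in Hoxb8 macrophage, 9640 and 10600 in BMDM and 186 and 204 in progenitor libraries, where Mertk was at 0. The 7 progenitor markers summed to between 158 and 171 FPKM in CAR, 12.9 and 14.6 in control-CAR, 11.7 and 14.8 in Hoxb8 macrophage, 152 and 270 in BMDM and 2610 and 2680 in progenitor libraries. In bulk samples fewer cells of a type and less RNA per cell cannot be told apart.

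Cs, which makes citrate at the entry to the cycle, measured 93, 92.15 and 92.22 FPKM in CAR libraries, 69.82, 77.24 and 78.63 in control-CAR libraries and 76.45, 71.53 and 64.68 in Hoxb8 macrophage libraries. BMDM libraries had 94.47, 101.3 and 92.57 FPKM of Cs, and progenitor libraries 151.8, 146 and 150.6. Progenitor libraries lay highest, CAR and BMDM libraries overlapped with each other, and control-CAR and Hoxb8 macrophage libraries overlapped below them. Cs shared 2.01% of its 50-base windows with the annotated transcripts of the gene Csl, and the other 8 enzymes shared none with another annotated gene. By exact matches of that length, Cs alone could thus draw a few reads from another gene. Inexact matches and copies without annotation were not examined.

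Idh1, the cytosolic NADP-dependent isocitrate dehydrogenase, was lowest in CAR libraries, at 22.7, 21.61 and 25.44 FPKM, against 46.68, 43.02 and 44.55 in control-CAR libraries. Hoxb8 macrophage libraries had 38.31, 34.92 and 41.06 FPKM of Idh1, BMDM libraries 53.19, 53.51 and 46.85, and progenitor libraries 88.37, 80.75 and 83.18. No 2 neighbouring groups overlapped for Idh1, and it was the enzyme for which CAR libraries stood below every other group. Its mitochondrial counterpart Idh2 measured 23.33, 22.8 and 23.67 FPKM in CAR, 12.2, 13.71 and 14.79 in control-CAR and 15.33, 13.5 and 14.69 in Hoxb8 macrophage libraries. Idh2 then stood at 33.55, 37.13 and 35.19 FPKM in BMDM and at 322.7, 339.6 and 342.2 in progenitor libraries. The lowest progenitor library thus lay far above every macrophage library for Idh2, and control-CAR and Hoxb8 macrophage libraries overlapped at the bottom. Idh3a, the catalytic subunit of the NAD-dependent complex, had 21.47, 21.92 and 21.62 FPKM in CAR, 4.61, 4.82 and 5.99 in control-CAR and 4.09, 4.92 and 5.42 in Hoxb8 macrophage libraries. For the same gene BMDM libraries had 7.88, 7.5 and 6.68 FPKM and progenitor libraries 58.57, 58.72 and 59.42. CAR libraries stood between progenitor libraries and all other macrophages for Idh3a, overlapping neither.

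Ogdh, the first enzyme of the 2-oxoglutarate dehydrogenase complex, varied least: 33.22, 34.1 and 34.84 FPKM in CAR, 30.01, 35.24 and 34.92 in control-CAR and 33.14, 33.15 and 31.06 in Hoxb8 macrophage libraries. Those 3 groups overlapped, below BMDM libraries at 40.76, 38.34 and 36.91 FPKM and progenitor libraries at 52.78, 50.51 and 50.22. Sdha, the flavoprotein of succinate dehydrogenase that holds the succinate site, measured 56.19, 62.05 and 60.11 FPKM in CAR, 49.73, 52.51 and 50.08 in control-CAR and 53.8, 48.81 and 51.01 in Hoxb8 macrophage libraries. For Sdha, BMDM libraries had 67.33, 67.31 and 64.12 FPKM and progenitor libraries 168.9, 167.6 and 167.4, above all macrophages. Sdhb, the iron-sulphur subunit of the same complex, had 85.21, 82.4 and 88.36 FPKM in CAR, 59.28, 66.38 and 63.52 in control-CAR and 67.01, 60.97 and 64.11 in Hoxb8 macrophage libraries. BMDM libraries, at 93.99, 82.02 and 91.88 FPKM, overlapped CAR libraries for Sdhb, and progenitor libraries were highest at 122.7, 128.8 and 122.8.

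Fh1, which hydrates fumarate to malate, had 19.17, 20.52 and 22.44 FPKM in CAR, 9.89, 9.44 and 11.04 in control-CAR and 11.56, 10.79 and 10.76 in Hoxb8 macrophage libraries. BMDM libraries, at 22.39, 21.65 and 22.81 FPKM, overlapped CAR libraries, and progenitor libraries were apart from both at 91.24, 90.45 and 94.88. Mdh2, the mitochondrial malate dehydrogenase that closes the cycle, was the most abundant of the 9 on this length-scaled level in all 15 libraries, with 300.9, 303.2 and 303 FPKM in CAR and 345.4, 382.6 and 370.1 in control-CAR libraries. Mdh2 reached 421, 400.1 and 372.6 FPKM in Hoxb8 macrophage libraries, 202.6, 213.2 and 216 in BMDM libraries and 427.7, 448.4 and 427.9 in progenitor libraries. It was the enzyme for which BMDM libraries were lowest and for which control-CAR and Hoxb8 macrophage libraries stood close to progenitor libraries, as the plot of FPKM by library shows.

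**Figure D1:**
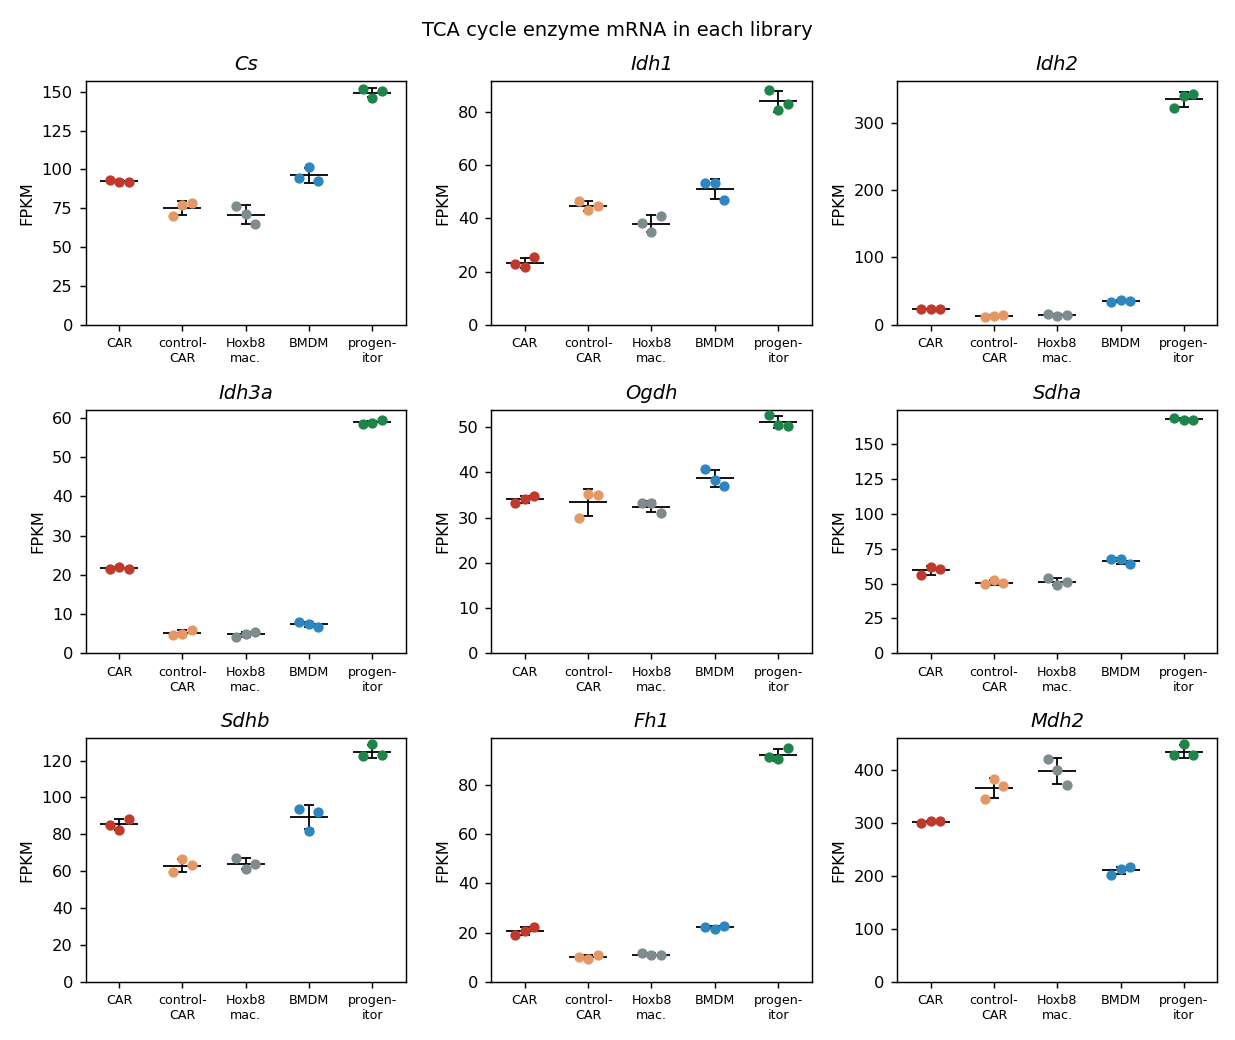
FPKM (linear axes starting at 0, a different scale for each gene) of the 9 enzymes in the 3 CAR, control-CAR, Hoxb8 macrophage (Hoxb8 mac.), BMDM and progenitor libraries; points are libraries, lines and bars the mean ± SD. Progenitor libraries are highest for every enzyme, from 58.57 to 59.42 FPKM for Idh3a against at most 21.92 in macrophages, and Mdh2 has another order, with BMDM lowest.

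CAR macrophages were compared with control-CAR macrophages, the group labelled with a control receptor. The mitochondrial isocitrate dehydrogenases and fumarase were higher in CAR macrophages, and the cytosolic isocitrate dehydrogenase and malate dehydrogenase were lower. Idh3a averaged 21.7 ± 0.229 FPKM with the CAR and 5.14 ± 0.744 with the control-CAR (SD, n = 3 each), 4.22-fold higher on the FPKM scale and a modelled log2 change of 1.77 (SE 0.1, edgeR adjusted p = 1.1e-11). Fh1 rose by 0.73 (SE 0.075, edgeR adjusted p = 5.1e-08) and Idh2 by 0.48 (SE 0.076, edgeR adjusted p = 1.6e-05) on the modelled log2 scale. Idh1 fell by 1.25 on that scale (SE 0.077, edgeR adjusted p = 3.9e-11), and 8.72% of all tested genes had a lower change. These 4 changes kept their direction and their call in all 17 alternatives run for the comparison. Mdh2 fell by 0.58 (SE 0.062, edgeR adjusted p = 1e-07), with 302 ± 1.27 FPKM with the CAR and 366 ± 18.9 with the control-CAR, although on the TPM scale the change was -0.035 and not called (limma adjusted p = 0.52).

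In all, 3 of the 9 enzymes were called higher (Idh2, Idh3a, Fh1), 3 lower (Idh1, Ogdh, Mdh2) and 3 in neither direction (Cs, Sdha, Sdhb). Of all genes tested, 78.7% were called, 41.9% higher and 36.8% lower, so that 6 of 9 is a share near the background. The median log2 change of the 9 was -0.01, beside 0.06 over all genes. Scaled by library totals, the median of all genes was 0.37 and 70.8% of the called genes were higher, beside 53.3% with TMM. The sign of the small changes turned with that choice: Cs was -0.01 with TMM and 0.3 with library totals, Sdha -0.08 and 0.23, and Ogdh -0.29 and 0.025, its FPKM values overlapping between the groups. Sdhb was not called with TMM at 0.14 (edgeR adjusted p = 0.093) and was called with library totals at 0.45 (edgeR adjusted p = 5.8e-06), and with TMM without control-CAR library 2 (0.2). The macrophage markers, lower in CAR than in control-CAR libraries by their sums given above, moved with this contrast, and so did the 6 mast cell and basophil markers, which summed to between 2650 and 2850 FPKM in CAR and 45.4 and 62.3 in control-CAR libraries. Of the 7 macrophage markers, 6 were called lower and 1 higher with TMM. The sum of the 7 progenitor markers, higher in CAR libraries, does not hold for each of them. With TMM 3 were called higher and 4 were not called, with log2 changes between -2.29 and 5.04. The 6 neutrophil markers summed to between 189 and 223 FPKM in CAR and 1700 and 2080 in control-CAR libraries, and the 6 fibroblast markers to between 45.8 and 47.1 FPKM in CAR and 0.85 and 1.26 in control-CAR libraries, where Sparc was at 0. The part of these differences in the enzyme changes was not tested.

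**Figure D2:**
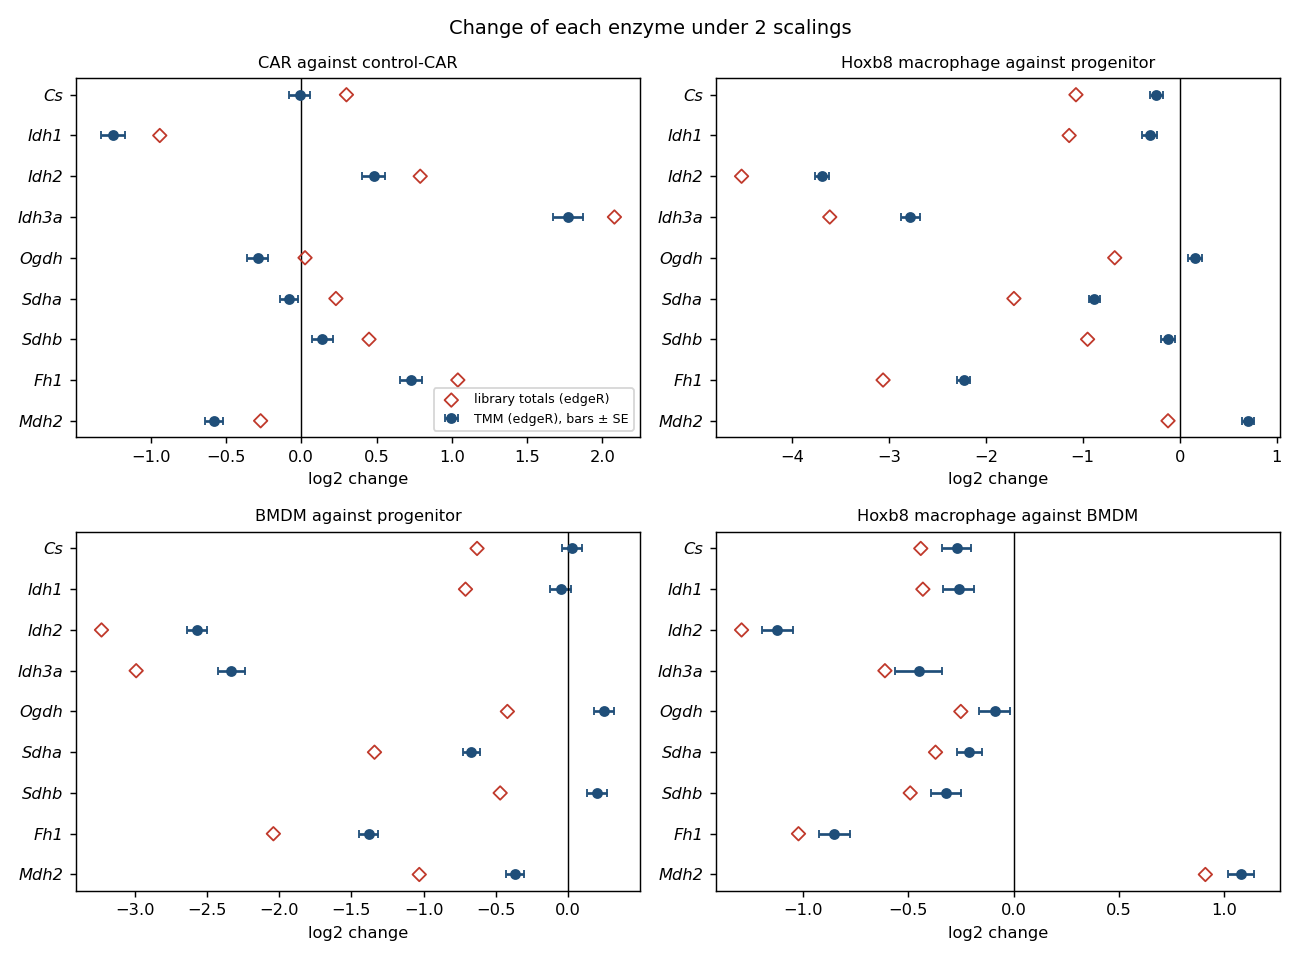
Log2 change (first-named group over the second) of each enzyme in 4 comparisons, with TMM scaling (filled circles, bars ± SE) and with library totals (open diamonds), from edgeR fits over 15 libraries. Idh2, Idh3a and Fh1 stay on 1 side of 0 under both scalings in all 4 panels, whereas Cs, Ogdh and Sdha change side in CAR against control-CAR, Ogdh and Mdh2 in Hoxb8 macrophage against progenitor, and Cs, Ogdh and Sdhb in BMDM against progenitor.

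Among the 10 other enzymes and subunits of the cycle, 5 were higher and 4 lower in CAR than in control-CAR macrophages with TMM, but 7 were higher and none lower with library totals, and their medians were 0.19 and 0.5. Over all 11793 genes, 4946 were called higher and 4334 lower with TMM, and 6722 and 2770 with library totals. Suclg2, a subunit of the GTP-forming succinyl-CoA ligase, had 11.4 ± 0.673 FPKM with the CAR and 2.25 ± 0.293 with the control-CAR and rose by 1.95 on the log2 scale (SE 0.095, edgeR adjusted p = 1.2e-12). Idh3g, a regulatory subunit of the same complex as Idh3a, rose by 0.47 (SE 0.062, edgeR adjusted p = 1.4e-06). Of 11 genes for pyruvate entry, 7 were higher and 2 lower under TMM and library totals alike. Pdk1, a kinase that switches off pyruvate dehydrogenase, had 10.2 ± 0.243 FPKM with the CAR and 38.5 ± 2.58 with the control-CAR and fell by 2.28 (SE 0.059, edgeR adjusted p = 1.9e-16). Pdk2, a second such kinase, had between 7 and 19 counts in CAR libraries and 0 in all control-CAR libraries. Of 17 genes for branches and exchange, 7 were higher and 8 lower. Acod1, whose product makes itaconate, had between 1035 and 1052 FPKM in CAR libraries and between 2055 and 2246 in control-CAR libraries, and fell by 1.36 (SE 0.073, edgeR adjusted p = 5.1e-12). Me1, the cytosolic NADP-dependent malic enzyme, had between 481 and 503 counts in CAR libraries and between 1 and 3 in control-CAR libraries, whereas Me2, a mitochondrial malic enzyme, fell by 1.37 (SE 0.061, edgeR adjusted p = 3.9e-13). Of 4 succinate dehydrogenase assembly factors, Sdhaf4 fell by 0.89 (SE 0.18) and Sdhaf1 by 0.77 (SE 0.12), and the other 2 were not called with TMM. Of 13 genes tested for mitochondrial mass and biogenesis, 10 were higher and 2 lower with TMM, and 11 and 1 with library totals. Hspd1, the matrix chaperonin, rose by 1.97 (SE 0.062, edgeR adjusted p = 2.6e-15), and Pprc1, a coactivator of the PGC-1 family, by 1.64 (SE 0.082, edgeR adjusted p = 1.6e-12).

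**Figure D3:**
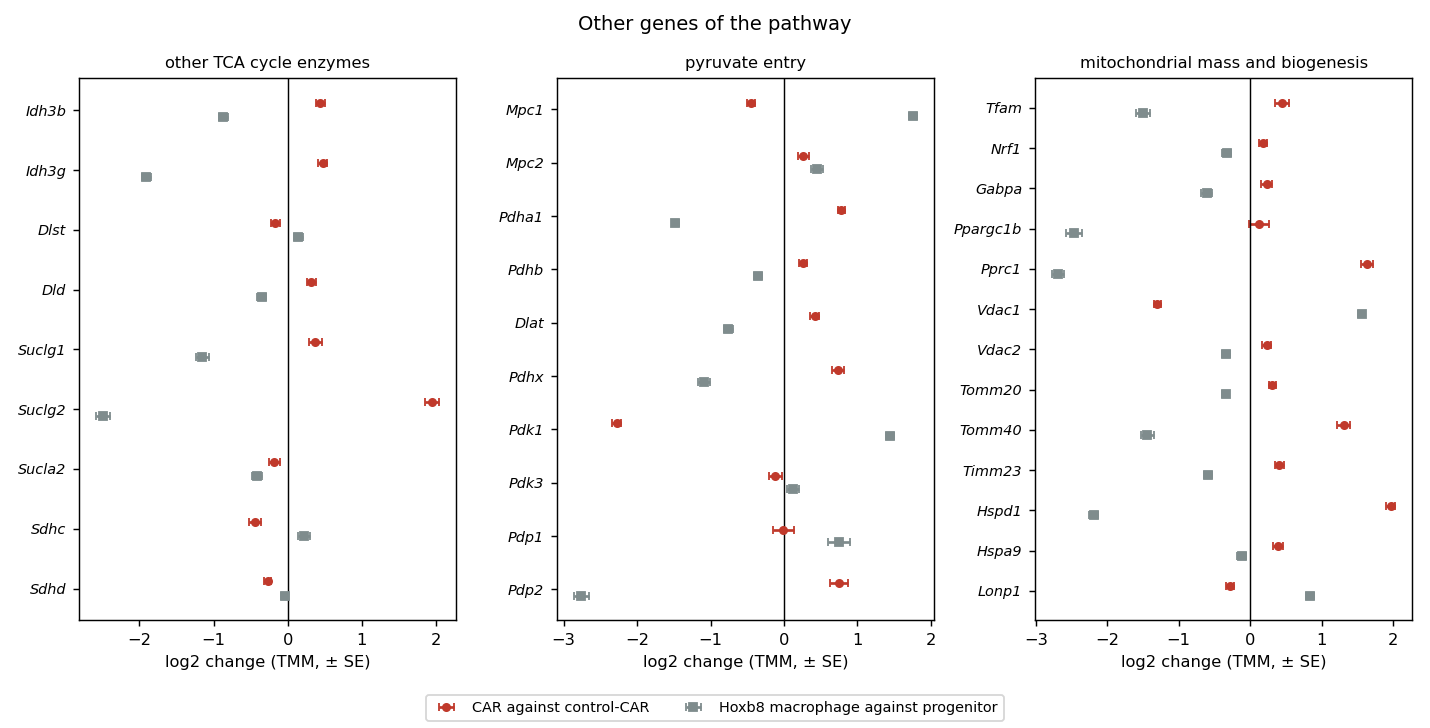
Log2 change with TMM scaling (bars ± SE) of genes from 3 lists in CAR against control-CAR macrophages (circles) and in Hoxb8 macrophages against progenitor cells (squares); Pdk2 is left out because control-CAR libraries had 0 counts. Suclg2 lies at 1.95 and -2.49, Hspd1 at 1.97 and -2.19 and Pdk1 at -2.28 and 1.44, but the signs turn under at least 1 other scaling for Dlst, Sdhc, Pdk3, Pdp1 and Lonp1 (both comparisons), Sdhd, Sucla2, Mpc1, Pdp2 and Ppargc1b (CAR against control-CAR) and Mpc2 (Hoxb8 macrophage against progenitor).

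Hoxb8 macrophages were compared with progenitor cells. Idh2, Idh3a and Fh1 fell most, and Sdha, Idh1 and Cs less. Idh2 averaged 14.5 ± 0.929 FPKM in Hoxb8 macrophages and 335 ± 10.6 in progenitor cells (SD, n = 3 each), 23.1-fold lower on the FPKM scale, with a modelled log2 change of -3.69 (SE 0.073, edgeR adjusted p = 6.6e-19); 4.18% of all genes had a lower change. Idh3a was 12.2-fold lower by FPKM and -2.78 in the model (SE 0.098, edgeR adjusted p = 3.4e-15). Fh1 was 8.35-fold lower by FPKM and -2.23 in the model (SE 0.069, edgeR adjusted p = 5e-16), and Sdha 3.28-fold lower and -0.88 (SE 0.059, edgeR adjusted p = 6.5e-11). Cs at -0.24 (SE 0.07) and Idh1 at -0.31 (SE 0.074) were also called lower, with edgeR adjusted p = 0.0035 and 0.00076. These 6 falls kept their direction and their call in all 17 alternatives.

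Mdh2 and Ogdh were called higher with TMM and lower with library totals. Mdh2 averaged 398 ± 24.3 FPKM in Hoxb8 macrophages and 435 ± 11.9 in progenitor cells without overlap, and its modelled log2 change was 0.71 with TMM (SE 0.062, edgeR adjusted p = 3.4e-09), -0.12 with library totals (edgeR adjusted p = 0.048), -0.43 by TPM and -0.008 with quantile normalisation, an alternative chosen after seeing the data. Ogdh was 0.16 with TMM (SE 0.071, edgeR adjusted p = 0.043) and -0.67 with library totals (edgeR adjusted p = 6e-09), and its TMM call was lost without Hoxb8 macrophage library 1 (0.15) or 2 (0.14) or without progenitor library 1 (0.17), 2 (0.14) or 3 (0.13). Sdhb was -0.12 (SE 0.071, edgeR adjusted p = 0.11) and was called lower with library totals at -0.95. With TMM the count was 2 higher, 6 lower and 1 not called of 9, beside a background of 84.3% of all genes called, 44.7% higher and 39.6% lower. The median of the 9 was -0.31 with TMM, beside 0.06 over all genes. With library totals the median of all genes was -0.69, and 30.3% of called genes were higher, beside 53% with TMM. Measured from the median of all genes in the same setting, Mdh2 lay between 0.15 and 0.71 over all 18 settings and Idh2 between -3.97 and -3.7. The macrophage and progenitor markers separated the 2 groups as given above, and the mast cell and basophil markers summed to between 33.7 and 49.3 FPKM in Hoxb8 macrophage libraries (Cma1 at 0) and 1350 and 1460 in progenitor libraries (Fcer1a and Cma1 at 0). Neutrophil markers summed to between 1230 and 1470 FPKM in Hoxb8 macrophage and 13.1 and 13.7 in progenitor libraries, where 5 of 6 were at 0, and fibroblast markers to at most 1.75 in either; the part of these in the enzyme changes was not tested.

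The other genes of the cycle also stood lower in Hoxb8 macrophages than in progenitor cells, 7 of 10 called lower and 2 higher with TMM and 10 of 10 lower with library totals. Over all 11793 genes, 4673 were called lower with TMM and 7195 with library totals. Suclg2 had 1.89 ± 0.238 FPKM in Hoxb8 macrophages against 17.8 ± 0.481 in progenitor cells and fell by 2.49 on the log2 scale (SE 0.097, edgeR adjusted p = 1.5e-14). Idh3g fell by 1.91 (SE 0.061, edgeR adjusted p = 6.6e-16). Pyruvate entry was mixed, with 4 of 11 genes higher and 5 lower with TMM and 2 and 8 with library totals. Pdp2, a phosphatase that switches pyruvate dehydrogenase on, fell by 2.76 (SE 0.1), and Mpc1, a subunit of the mitochondrial pyruvate carrier, rose by 1.76 (SE 0.055, edgeR adjusted p = 5.4e-16). Of 17 genes for branches and exchange, 7 were higher and 8 lower with TMM, and 3 and 13 with library totals. Acod1 had between 1843 and 2075 FPKM in Hoxb8 macrophage libraries and between 0.4 and 0.53 in progenitor libraries, a log2 change of 12.86 (SE 0.13, edgeR adjusted p = 3.5e-22). Me1 had between 1 and 3 counts in Hoxb8 macrophage libraries and 0 in progenitor libraries. Among assembly factors, Sdhaf3 fell by 1.43 (SE 0.22), on between 13 and 17 counts in Hoxb8 macrophage libraries, and Sdhaf2 rose by 1 with TMM (SE 0.059) but was -0.13 by TPM. For mitochondrial mass and biogenesis, 10 of 13 genes were lower and 2 higher with TMM, with Pprc1 at -2.69 (SE 0.084) and Ppargc1b, which encodes the coactivator PGC-1 beta, at -2.47 (SE 0.11).

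The windows before the annotated transcription starts of 4 enzymes are printed because they carry the contrast of this comparison: Idh2, Fh1 and Sdha, which stood 23.1-fold, 8.35-fold and 3.28-fold lower in Hoxb8 macrophages by FPKM, and Mdh2, which stood 1.09-fold lower. The 250 bases upstream of each start come from RefSeq (GRCm38.p6), for Idh2 chr7:80115351-80115600 (minus strand), for Fh1 chr1:175625636-175625885 (minus strand), for Sdha chr13:74350241-74350490 (minus strand) and for Mdh2 chr5:135778399-135778648 (plus strand), each written 5′ to 3′ on the gene's strand. Capitals mark matches, on either strand, to any of 7 motifs: the NRF1 core (GCGC on either side of any 2 bases), GGGCGG for the GC box, CACGTG for the E box, CCAAT for the box of that name, CCGGAAG for ETS factors, AAGGTCA for nuclear receptors, and last TCTCGCGAGA, the self-complementary run of 10 bases repeated most often in the Mdh2 window, chosen after that window had been read.
Idh2: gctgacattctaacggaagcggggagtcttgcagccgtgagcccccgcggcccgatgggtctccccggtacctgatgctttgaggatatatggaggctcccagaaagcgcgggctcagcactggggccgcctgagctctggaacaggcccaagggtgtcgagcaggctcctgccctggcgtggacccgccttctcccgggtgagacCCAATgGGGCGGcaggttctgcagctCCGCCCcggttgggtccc
Fh1: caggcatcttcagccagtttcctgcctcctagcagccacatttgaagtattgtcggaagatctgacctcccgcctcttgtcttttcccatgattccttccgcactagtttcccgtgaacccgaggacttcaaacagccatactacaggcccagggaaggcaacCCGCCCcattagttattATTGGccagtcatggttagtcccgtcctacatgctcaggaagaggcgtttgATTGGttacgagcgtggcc
Sdha: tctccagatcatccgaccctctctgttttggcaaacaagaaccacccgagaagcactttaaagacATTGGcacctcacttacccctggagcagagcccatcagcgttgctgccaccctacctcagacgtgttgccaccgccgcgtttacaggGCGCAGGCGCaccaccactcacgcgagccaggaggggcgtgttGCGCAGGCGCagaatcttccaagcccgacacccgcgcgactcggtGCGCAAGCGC
Mdh2: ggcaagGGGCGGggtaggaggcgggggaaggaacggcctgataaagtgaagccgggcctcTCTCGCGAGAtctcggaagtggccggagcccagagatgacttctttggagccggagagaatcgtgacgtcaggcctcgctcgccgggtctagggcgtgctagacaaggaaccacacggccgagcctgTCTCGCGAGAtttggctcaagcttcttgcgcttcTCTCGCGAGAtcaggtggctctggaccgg
No matches overlap in these 4 windows. Sdha held 3 matches to the NRF1 core, found in 4.98% of 32851 RefSeq windows of the same length, and no other enzyme's window held one. Mdh2 held 3 matches to TCTCGCGAGA, found in 0.39% of windows, none to CCAAT (33.8%) and 1 to GGGCGG (32.7%). Idh2 held 2 of GGGCGG and 1 of CCAAT, and Fh1 1 and 2. None of the windows of the 8 enzymes that had an entry held CCGGAAG (6.91% of windows) or AAGGTCA (4.08%), and CACGTG (6.02%) was found in the windows of alternative Ogdh starts. Idh3a had no entry. These are matches of letters and no test of binding. The genes lie whole on the same build at chr7:80094845-80118608 (Idh2), chr1:175601378-175625635 (Fh1), chr13:74322255-74350240 (Sdha) and chr5:135778649-135790386 (Mdh2), so the Idh2 window falls within the gene's annotated span and the others just before it. The other 5 lie at chr10:128337727-128362482 (Cs), chr1:65158616-65186479 (Idh1), chr9:54586511-54604662 (Idh3a), chr11:6291597-6359094 (Ogdh) and chr4:140961271-140979198 (Sdhb).

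BMDM, compared with the same progenitor libraries, also held less Idh2, Idh3a, Fh1 and Sdha. Idh2 averaged 35.3 ± 1.79 FPKM in BMDM and 335 ± 10.6 in progenitor cells, 9.49-fold lower, with a modelled log2 change of -2.57 (SE 0.067, edgeR adjusted p = 3.5e-17). Idh3a was -2.33 (SE 0.092, edgeR adjusted p = 2e-14), Fh1 -1.38 (SE 0.064, edgeR adjusted p = 2.2e-13) and Sdha -0.67 (SE 0.059, edgeR adjusted p = 3.1e-09). Mdh2 averaged 211 ± 7.08 FPKM in BMDM and 435 ± 11.9 in progenitor cells and fell by 0.37 (SE 0.062, edgeR adjusted p = 2e-05). These 5 falls kept direction and call in all 17 alternatives. Ogdh at 0.25 (SE 0.071, edgeR adjusted p = 0.0034) and Sdhb at 0.2 (SE 0.069, edgeR adjusted p = 0.013) were called higher with TMM, but were -0.42 and -0.47 and called lower with library totals; the Sdhb call with TMM was lost without BMDM library 1 (0.13) or without progenitor library 1 (0.13) or 3 (0.14). Cs at 0.03 and Idh1 at -0.05 were not called with TMM and were -0.63 and -0.71 and called lower with library totals. With TMM 2 of 9 were thus higher and 5 lower, beside 87.3% of all genes called, 46.6% higher and 40.7% lower, and the median of the 9 was -0.37, beside 0.1 over all genes. With library totals the median of all genes was -0.54, and 35.1% of called genes were higher, beside 53.4% with TMM. Neutrophil markers summed to between 4770 and 11200 FPKM in BMDM libraries and 13.1 and 13.7 in progenitor libraries, and mast cell and basophil markers to between 153 and 184 in BMDM and 1350 and 1460 in progenitor libraries. That last sum does not hold for each marker: of the 6 mast cell and basophil markers, 4 were called higher and 2 lower in BMDM with TMM. Fibroblast markers summed to between 15 and 17.2 FPKM in BMDM and 1.49 and 1.75 in progenitor libraries, and the part of these markers in the changes was not tested.

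Of the 10 other cycle genes, 8 were lower and 1 higher in BMDM than in progenitor cells with TMM, and all 10 were lower with library totals. Over all 11793 genes, 4797 were called lower with TMM and 6959 with library totals. Idh3g at -1.3 (SE 0.057) and Suclg1, the shared subunit of succinyl-CoA ligase, at -0.98 (SE 0.082) changed most. Pyruvate entry had 6 of 11 higher and 5 lower with TMM, and 3 and 7 with library totals. Pdp2 was -1.7 (SE 0.089), and Pdk2 had between 71 and 74 counts in BMDM and 3 or 4 in progenitor libraries. In branches and exchange, 7 of 17 were higher and 6 lower with TMM, and 4 and 11 with library totals. Acod1 had between 1134 and 1257 FPKM in BMDM libraries, a log2 change of 11.97 (SE 0.13), and Me1 between 226 and 231 counts, against 0 in progenitor libraries. Assembly factors gave Sdhaf2 at 1.24 (SE 0.058) and Sdhaf3 at -0.8 (SE 0.2), and mass and biogenesis genes 11 of 13 lower with TMM and 13 with library totals, with Ppargc1b at -3.4 (SE 0.12) and Hspd1 at -2.48 (SE 0.063).

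Hoxb8 macrophages were then set against BMDM, 2 wild type macrophage groups. Mdh2 was higher in Hoxb8 macrophages and 7 of the other 8 enzymes were lower. Mdh2 averaged 398 ± 24.3 FPKM in Hoxb8 macrophages and 211 ± 7.08 in BMDM (SD, n = 3 each), 1.89-fold higher, with a modelled log2 change of 1.08 (SE 0.063, edgeR adjusted p = 2.8e-11) that lay above those of 93.1% of genes. Idh2 was -1.12 (SE 0.073, edgeR adjusted p = 1.5e-10) and Fh1 -0.85 (SE 0.073, edgeR adjusted p = 7.1e-09). Idh3a at -0.45, Sdhb at -0.32, Cs at -0.27, Idh1 at -0.26 and Sdha at -0.21 were called lower with SE between 0.06 and 0.11, and Ogdh at -0.09 was not called with TMM (SE 0.072, edgeR adjusted p = 0.3) but was called lower with library totals at -0.25 (edgeR adjusted p = 0.00087). No sign turned in any of the 17 alternatives, the call was lost for Idh3a with quantile normalisation (limma adjusted p = 0.1), and Ogdh gained one in 5 of them, at -0.25 with library totals and both FPKM fits, -0.42 by TPM and -0.17 with quantile normalisation. The background was 70.3% of all genes called, 32% higher and 38.3% lower, and the median of the 9 was -0.27, beside -0.05 over all genes. With library totals that median was -0.22, and 30.9% of called genes were higher, beside 45.5% with TMM. The neutrophil markers summed to between 1230 and 1470 FPKM in Hoxb8 macrophage libraries and 4770 and 11200 in BMDM libraries. The fibroblast markers summed to between 0.51 and 1.21 in Hoxb8 macrophage and 15 and 17.2 in BMDM libraries. Mast cell and basophil markers summed to between 33.7 and 49.3 in Hoxb8 macrophage and 153 and 184 in BMDM libraries, with 5 of 6 called lower. Of the 7 progenitor markers, 6 were called lower and 1 higher with TMM. Of the 7 macrophage markers, 5 were called lower, 1 higher and 1 in neither direction. The part of all these markers was not tested.

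Of the 10 other cycle genes, 1 was higher and 4 were lower in Hoxb8 macrophages than in BMDM with TMM, and 7 were lower with library totals. Over all 11793 genes, 4516 were called lower with TMM and 5865 with library totals. Suclg2 was -1.84 (SE 0.1) and Idh3g -0.62 (SE 0.063). For pyruvate entry 3 of 11 were higher and 6 lower, with Pdp2 at -1.07 (SE 0.12) and Pdk2 at 0 or 1 counts in Hoxb8 macrophage libraries against 71 to 74 in BMDM libraries. Among branches and exchange 5 of 17 were higher and 9 lower. Me2 was 1.49 (SE 0.061), Acod1 0.89 (SE 0.072), and Me1 had between 1 and 3 counts in Hoxb8 macrophage and 226 and 231 in BMDM libraries. Sdhaf3 at -0.62 (SE 0.26, edgeR adjusted p = 0.039), which turned positive with quantile normalisation, and Sdhaf1 at 0.57 (SE 0.12) were called among assembly factors. For mass and biogenesis 6 of 13 were higher and 5 lower with TMM, and 4 and 6 with library totals, with the matrix protease gene Lonp1 at 1.27 (SE 0.059) and the outer membrane channel gene Vdac1 at 1.14 (SE 0.048).

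Control-CAR and untreated Hoxb8 macrophages did not differ detectably in any of the 9 enzymes. By the quasi-likelihood test of edgeR 0 of 9 were called, 3 of 9 had an unadjusted p under 0.05, and limma and DESeq2 also called 0. The share of all genes under that unadjusted threshold was not computed, so the 3 cannot be read as an excess. Across all genes 2.62% were called, 0.721% higher and 1.9% lower, so a set of 9 would hold few at that rate. Those were 85 genes higher and 224 lower with TMM (27.5% higher), and 278 and 192 with library totals (59.1% higher). The total of 309 fell to 106, 170 and 118 without Hoxb8 macrophage library 1, Hoxb8 macrophage library 2 and control-CAR library 3. The modelled log2 changes lay between -0.17 (Fh1, SE 0.08, and Mdh2, SE 0.062) and 0.19 (Idh1, SE 0.075, edgeR adjusted p = 0.19). Idh1, with 44.8 ± 1.84 FPKM in control-CAR and 38.1 ± 3.08 in Hoxb8 macrophages, was the enzyme whose libraries did not overlap. The share of all genes without overlap was not computed, so this cannot be read as a difference in Idh1. The median of the 9 was -0.05, beside 0 over all genes. Of the pathway lists, 1 of 17 genes for branches and exchange was called, Me2 at -0.49 (SE 0.059, edgeR adjusted p = 0.00018), and 3 of 13 for mitochondrial mass and biogenesis, with Pprc1 at 0.44 (SE 0.095) and Lonp1 at -0.35 (SE 0.058) the largest. None of the other 3 lists had a called gene by edgeR. Acod1 at 0.11 (edgeR adjusted p = 0.47) was not called.

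CAR macrophages were also set against BMDM and against progenitor cells; these contrasts share their CAR, BMDM and progenitor libraries with the ones above. Relative to BMDM, Idh3a and Mdh2 were higher in CAR macrophages and the other 7 enzymes lower. Idh3a averaged 21.7 ± 0.229 FPKM in CAR macrophages and 7.35 ± 0.613 in BMDM, a log2 change of 1.37 (SE 0.095, edgeR adjusted p = 2.5e-10), and Mdh2 was 0.33 (SE 0.062, edgeR adjusted p = 1e-04). Idh1 was -1.32 (SE 0.077, edgeR adjusted p = 2.1e-11) and Idh2 -0.79 (SE 0.07, edgeR adjusted p = 8.7e-09). Ogdh at -0.39, Sdha at -0.34, Fh1 at -0.29, Sdhb at -0.26 and Cs at -0.24 were called lower with TMM, but the FPKM values of Fh1, Sdhb and Cs overlapped between the groups, and by TPM Cs was 0.022, Sdhb 0.013 and none of the 5 was called. With library totals Cs at -0.06 (edgeR adjusted p = 0.37), Fh1 at -0.11 (edgeR adjusted p = 0.12) and Sdhb at -0.082 (edgeR adjusted p = 0.23) were not called, nor were they in either FPKM fit. All 9 were thus called with TMM and 6 with library totals. Library totals put 5800 of all 11793 genes higher and 3422 lower. The TMM count stands beside 76.9% of all genes called, 39.2% higher and 37.8% lower. The median of the 9 was -0.29, beside 0.02 over all genes, or 0.2 with library totals, where 62.9% of called genes were higher, beside 50.9%. Mast cell and basophil markers summed to between 2650 and 2850 FPKM in CAR and 153 and 184 in BMDM libraries, and neutrophil markers to between 189 and 223 in CAR and 4770 and 11200 in BMDM libraries. Fibroblast markers summed to between 45.8 and 47.1 FPKM in CAR and 15 and 17.2 in BMDM libraries, but of the 4 tested, 2 were called higher and 2 lower with TMM. Macrophage markers differed as given above, with 6 of 7 called lower and 1 higher. Of the 7 progenitor markers, 2 were called higher, 4 lower and 1 in neither direction. The part of all these markers in the enzyme changes was not tested. Of the 10 other cycle genes 3 were higher and 3 lower with TMM and 6 and 0 with library totals, with Suclg2 at 0.47 (SE 0.081) and Dld, the shared dihydrolipoamide dehydrogenase, at 0.34 (SE 0.061). In pyruvate entry 5 of 11 were higher and 5 lower, with Pdk2 at -2.59 (SE 0.25) and Pdk1 at -2.02 (SE 0.059). In branches and exchange 6 of 17 were higher and 10 lower, with the aspartate-glutamate carrier gene Slc25a13 at 1.45 (SE 0.1) and Acod1 at -0.36 (SE 0.072). Sdhaf4 was -1.24 (SE 0.17) and Sdhaf2 -0.18 (SE 0.056; the sign turned for Sdhaf2 under 3 other scalings), and 10 of 13 mass and biogenesis genes were higher, with Hspd1 at 2.3 (SE 0.063) and Pprc1 at 1.7 (SE 0.081).

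Relative to progenitor cells, CAR macrophages had lower Idh2, Fh1, Idh1, Sdha, Idh3a and Cs, and no enzyme was called higher. Idh2 averaged 23.3 ± 0.438 FPKM in CAR macrophages and 335 ± 10.6 in progenitor cells, 14.4-fold lower, with a log2 change of -3.36 (SE 0.07, edgeR adjusted p = 1.6e-18). Fh1 was -1.67 (SE 0.065, edgeR adjusted p = 1.7e-14), Idh1 -1.37 (SE 0.076, edgeR adjusted p = 4.2e-12), Sdha -1.01 (SE 0.059, edgeR adjusted p = 9.1e-12), Idh3a -0.96 (SE 0.084, edgeR adjusted p = 3.6e-09) and Cs -0.21 (SE 0.069, edgeR adjusted p = 0.01). These 6 held in all 17 alternatives. Ogdh at -0.14 (edgeR adjusted p = 0.08), Sdhb at -0.06 (edgeR adjusted p = 0.39) and Mdh2 at -0.04 (edgeR adjusted p = 0.57) were not called in the full TMM fit. With library totals these 3 were called lower at -0.62, -0.55 and -0.52. Ogdh was called lower in 11 of 18 settings. Among them were the 2-group fit (-0.14), DESeq2 (-0.17), the filterByExpr filter (-0.17), no filter (-0.22) and TMM without progenitor library 3 (-0.19). The count of 6 lower compares with 85.6% of all genes called, 45.9% higher and 39.7% lower, and the median of the 9 was -0.96, beside 0.07 over all genes, or -0.4 with library totals, where 37.4% of called genes were higher, beside 53.7%. Library totals put 6592 of all 11793 genes lower. Mast cell and basophil markers summed to between 2650 and 2850 FPKM in CAR and 1350 and 1460 in progenitor libraries. Neutrophil markers summed to between 189 and 223 in CAR and 13.1 and 13.7 in progenitor libraries, but of the 6, 5 were called higher and 1 lower with TMM. Fibroblast markers summed to between 45.8 and 47.1 FPKM in CAR and 1.49 and 1.75 in progenitor libraries, macrophage and progenitor markers differed as given above, and the part of all these was not tested. Of the 10 other cycle genes 8 were lower and 1 higher with TMM and 10 lower with library totals, with Idh3g at -1.32 (SE 0.057) and Suclg1 at -0.79 (SE 0.08). Pyruvate entry had 4 of 11 higher and 7 lower, with Pdp2 at -2.01 (SE 0.09) and Pdk2 at 7 to 19 counts in CAR libraries against 3 or 4 in progenitor libraries. Branches and exchange had 6 of 17 higher and 9 lower, with Acod1 at 11.61 (SE 0.13) and Me1 at 481 to 503 counts in CAR libraries against 0 in progenitor libraries. Sdhaf2 was 1.06 (SE 0.058) and Sdhaf3 -0.97 (SE 0.2), and mass and biogenesis genes were 2 of 13 higher and 6 lower with TMM and 13 lower with library totals, with Ppargc1b at -2.65 (SE 0.11) and Tfam, the mitochondrial transcription factor, at -0.92 (SE 0.088).

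The make-up of the set does not depend on the scaling, because the enzymes are compared within 1 library. Mdh2 made up 45.6 ± 0.461% of the summed FPKM of the 9 in CAR, 55.3 ± 0.503% in control-CAR, 58.1 ± 1.09% in Hoxb8 macrophage, 34.1 ± 1.18% in BMDM and 29 ± 0.592% in progenitor libraries. Idh2 took 3.51 ± 0.0561% in CAR, 2.05 ± 0.132% in control-CAR, 2.12 ± 0.126% in Hoxb8 macrophage, 5.72 ± 0.263% in BMDM and 22.3 ± 0.564% in progenitor libraries (SD, n = 3 each). The progenitor set was thus the one in which Idh2 was the second most abundant enzyme, and the control-CAR and Hoxb8 macrophage sets those in which Mdh2 outweighed the other 8 together. Idh3a took 3.27 ± 0.0496% in CAR and 3.93 ± 0.0408% in progenitor libraries, and at most 1.28% in any library of the other 3 groups. Fh1 took 3.12 ± 0.208% in CAR, 1.53 ± 0.136% in control-CAR, 1.61 ± 0.027% in Hoxb8 macrophage, 3.61 ± 0.122% in BMDM and 6.15 ± 0.172% in progenitor libraries. The whole set summed to between 655.2 and 671.7 FPKM in CAR, 627.6 and 684.9 in control-CAR, 655.3 and 720.7 in Hoxb8 macrophage, 613 and 622 in BMDM and 1485 and 1511 in progenitor libraries. On that scale CAR overlapped control-CAR and Hoxb8 macrophage libraries, but as a share of all FPKM the set took between 0.102% and 0.103% in CAR, 0.0822% and 0.0898% in control-CAR, 0.0838% and 0.0932% in Hoxb8 macrophage, 0.0885% and 0.0924% in BMDM and 0.239% in progenitor libraries, CAR standing above the other macrophages. By TPM, which restates the share of all FPKM, the mean sums were 1020 in CAR, 867 in control-CAR, 889 in Hoxb8 macrophage, 904 in BMDM and 2390 in progenitor libraries. That place of CAR above the other macrophages is relative to all FPKM and was not seen with TMM. There the median log2 change of the 9 was -0.01 in CAR against control-CAR and -0.29 in CAR against BMDM. With 3 libraries against 3, a two-sided exact permutation test of a share or ratio cannot give a p under 0.1, so these are given as values.

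**Figure D4:**
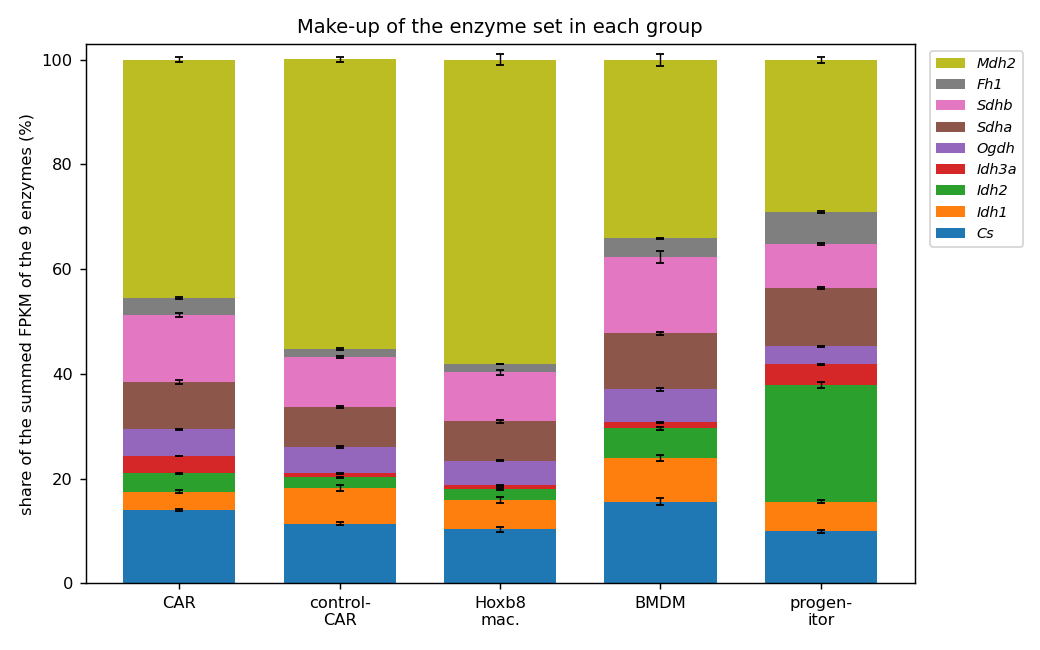
Share (%) of each enzyme in the summed FPKM of the 9, as stacked means of 3 libraries per group; the bar at the top of each segment is ± SD of that enzyme's share. Mdh2 is the largest segment in every group and Idh2 is wide in progenitor cells alone, at 22.3% beside at most 5.97% in a macrophage library.

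The order of the groups differed between ratios of partner enzymes. The FPKM ratio of Idh1 to Idh2, the cytosolic over the mitochondrial NADP-dependent enzyme, was 0.973, 0.948 and 1.07 in CAR libraries, 3.83, 3.14 and 3.01 in control-CAR libraries and 2.5, 2.59 and 2.8 in Hoxb8 macrophage libraries. It was 1.59, 1.44 and 1.33 in BMDM libraries and 0.274, 0.238 and 0.243 in progenitor libraries. No 2 of the 5 groups overlapped in this ratio, and CAR libraries stood between BMDM and progenitor libraries. Within the IDH3 complex, the ratio of Idh3a to the regulatory subunit gene Idh3b was 0.404 ± 0.0269 in CAR, 0.161 ± 0.0146 in control-CAR, 0.148 ± 0.0213 in Hoxb8 macrophage, 0.168 ± 0.0208 in BMDM and 0.555 ± 0.0197 in progenitor libraries. Against Idh3g it was 0.456 ± 0.0284 in CAR, 0.186 ± 0.0308 in control-CAR, 0.195 ± 0.0207 in Hoxb8 macrophage, 0.174 ± 0.0138 in BMDM and 0.355 ± 0.0113 in progenitor libraries, so CAR libraries held more catalytic subunit mRNA per Idh3g than any other group. Mdh2 to Cs, the enzymes that make and use oxaloacetate, was 3.27 ± 0.0303 in CAR, 4.87 ± 0.14 in control-CAR, 5.62 ± 0.129 in Hoxb8 macrophage, 2.19 ± 0.122 in BMDM and 2.91 ± 0.141 in progenitor libraries. Sdhb to Sdha was at least 1.19 in every macrophage library and at most 0.769 in progenitor libraries, and Sdhc and Sdhd, the membrane anchor genes of the complex, were likewise higher relative to Sdha in macrophages, at least 1.14 and 1.37 per library against at most 0.747 and 1.04 in progenitor libraries. Ogdh to Dlst, its partner in the 2-oxoglutarate dehydrogenase complex, stayed between 0.478 and 0.575 in all 15 libraries.

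The genes whose pattern over the 15 libraries was most like each enzyme were found by Pearson's r of log2(FPKM + 1), given as a description because the libraries fall into groups and share their depth scaling. They were Cyp51 (r = 0.994) and Cox15 (0.993) for Cs, Dok2 (0.99) and Man1c1 (0.986) for Idh1, and Parvg and Acsf2 (both 0.998) for Idh2. For Idh3a they were C1qbp and Fpgs (both 0.998), for Ogdh Hadha (0.982) and Tkfc (0.978), and for Sdha Ripor1 and Far2 (both 0.997). Sdhb was most like Cdca5 (0.99) and Naa38 (0.987), Fh1 most like Med16 (0.998) and Slc25a5 (0.997), and Mdh2 most like Hoxb8 (0.981) and Sdc2 (0.979). Among the 9 themselves, Mdh2 had r between 0.01 and 0.33 with the others and Idh1 between 0.25 and 0.79. The remaining 7 had r of at least 0.79 with each other. These r hold for the FPKM scale, on which progenitor libraries were highest for every enzyme. They were not computed with TMM, where the 7 did not all move together. In Hoxb8 macrophage against progenitor, Ogdh was 0.16 and Idh2 -3.69 with TMM.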

How the data were processed

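Gene-level values of 15 mouse libraries, 3 in each of 5 groups taken from the titles, genotypes and treatments, are held in 1 deposited table. Per the file headers, the authors deposited estimated counts without normalisation; between 94.4% and 96% of a library's values were whole, and all were rounded for testing. The authors also deposited FPKM and TPM per gene, per the file headers; TPM served as an alternative alone. HISAT2, Bowtie2, RSEM 1.3.1, DESeq2 1.4.5 and GRCm38.p6 are named, per the submitters' processing notes; what each tool was used for, and with which annotation and strand setting, is not given in the sources used here. The table's 15 columns of averages were not used.

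From these values, edgeR 4.0.16 (R 4.3.3) fitted 1 group-means model to all 15 libraries (TMM, 10 residual degrees of freedom, two-sided quasi-likelihood test, Benjamini-Hochberg adjustment over 11793 genes; 5237 genes under the filter were left out) in 7 comparisons. Totals lay between 16962839 and 19221681 counts, which with 3 libraries a group sets the precision. Alternatives were library totals, upper quartile, DESeq2 1.42.0, limma 3.58.1 on log2(FPKM + 1), log2(FPKM + 0.1) and log2(TPM + 1), other filters, 2-group fits, a replicate block, leaving out each library and quantile normalisation. Same-numbered libraries did not deviate together (correlation of deviations between -0.15 and 0.03), so the numbers were not treated as pairs. Every pair of replicates differed by more than sampling noise (chi-square per degree of freedom between 1.39 and 20.4).

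The 9 genes, the pathway and marker lists and the tests were chosen with earlier results of these data known. All 9 are named; of each pathway list the 2 called genes with the largest change in a comparison are named, with Acod1; 2 genes that this rule names are not reported here. Pdk4 was not analysed here, and Ppargc1a did not pass the filter. Lists are described by counts and medians beside those of all genes. Promoter windows and gene positions are from RefSeq (GRCm38.p6), with windows for 8 of the 9. Figures used matplotlib 3.10.9 and Python 3.11.15.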

Additional observations from a re-analysis of the deposited data

How the results depend on the processing

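Of 1071 changes of an enzyme under an alternative, 924 kept their direction and side of the threshold, 34 lost the call, 49 gained it and 64 changed sign, 13 of these on leaving out 1 library. Scaling shifted the median log2 change of all genes: with library totals by 0.31 in CAR against control-CAR, -0.75 in Hoxb8 macrophage against progenitor, -0.64 in BMDM against progenitor and -0.47 in CAR against progenitor.

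In CAR against control-CAR, Cs turned positive with library totals and both FPKM fits (0.3 each), upper quartile (0.067), TPM (0.53), the 2-group fit (0.004) and quantile normalisation (0.23), Ogdh with library totals (0.025), FPKM (0.031 with a pseudocount of 1, 0.032 with 0.1) and TPM (0.27), and Sdha with library totals (0.23), FPKM (0.22 and 0.23), TPM (0.46) and quantile normalisation (0.11). In Hoxb8 macrophage against progenitor, Mdh2 turned negative with library totals (-0.12), FPKM (-0.13 each), TPM (-0.43) and quantile normalisation (-0.008), and Ogdh with library totals (-0.67), upper quartile (-0.053), FPKM (-0.64 and -0.66), TPM (-0.94) and quantile normalisation (-0.31). In BMDM against progenitor, Cs was negative with library totals (-0.63), upper quartile (-0.14), FPKM (-0.63 and -0.64), TPM (-0.76), no filter (-0.05), the 2-group fit (-0.015) and quantile normalisation (-0.52), Ogdh with library totals (-0.42), FPKM (-0.4 each), TPM (-0.52) and quantile normalisation (-0.14), and Sdhb with library totals (-0.47), FPKM (-0.48 each) and TPM (-0.6). In control-CAR against Hoxb8 macrophage, Ogdh was 0.021 with library totals, 0.037 and 0.038 by FPKM and 0.05 by TPM, and Sdha 0.002 by TPM. In CAR against BMDM by TPM, Cs was 0.022 and Sdhb 0.013, and 4 enzymes were called in place of 9; 6 were called with library totals and both FPKM fits, without Cs, Fh1 and Sdhb. In Hoxb8 macrophage against BMDM, Ogdh was called in 5 alternatives, between -0.42 and -0.17. In CAR against progenitor, where the full TMM fit did not call it, Ogdh was called lower in 11 of 18 settings.

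Leaving out 1 library gave Cs between -0.084 and 0.03 in CAR against control-CAR, between -0.029 and 0.078 in BMDM against progenitor and between -0.018 and 0.12 in control-CAR against Hoxb8 macrophage. It gave Idh1 between -0.12 and 0.033 in BMDM against progenitor, and Idh3a between -0.078 and 0.15 and Ogdh between -0.068 and 0.073 in control-CAR against Hoxb8 macrophage; none of these was called in the full fit. Genes called in control-CAR against Hoxb8 macrophage numbered 309, with 470 by library totals, 97 in the 2-group fit and between 106 and 311 on leaving out 1 library (106, 118 and 170 without Hoxb8 macrophage library 1, control-CAR library 3 and Hoxb8 macrophage library 2). With the replicate block 246 were called there, and the block moved no count of genes by over 1.5 times. Among enzymes it ended 1 call: Ogdh in Hoxb8 macrophage against progenitor, 0.16 with an adjusted p of 0.057 by edgeR. That call was also lost on leaving out 5 of the 6 libraries in turn, and with DESeq2, no filter, the filterByExpr filter and the 2-group fit. The causes were not tested. Depth limits Idh3a, with as few as 150 counts in a library.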
